A study of Mus musculus with 6 samples.

Results

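Of the 31284 merged CTCF sites in the 4 deposited peak lists, 435 held a peak in both lists from untreated cells. They are called shared sites here. They were chosen by the measured calls themselves: a site is a connected set of peaks from different lists that overlap by at least 1 bp on chromosomes 1 to 19 and X. Whether a shared site was also called after chromium played no part in the choice.

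The cells were Hepa-1c1c7, an established mouse hepatoma line, with the potassium chromate dose given as 0 µM for 2 untreated libraries and as 25 µM, for 90 min, for 2 chromium libraries. Potassium chromate is a salt of hexavalent chromium, and the series asks whether it alters CTCF occupancy, in particular at promoters. Libraries are numbered 1 and 2 in each group, both number 1 libraries were called against input 1 and both number 2 libraries against input 2. Whether libraries 1 and 2 stem from separate cultures is not stated, so differences between them may be technical. A single tumour line was used in all groups, and peaks do not measure expression, so its cell type could not be checked against marker genes.

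CTCF recognises a long, GC-rich DNA motif through a row of zinc fingers. Together with the cohesin ring it anchors chromatin loops and marks domain boundaries, and it can insulate genes from enhancers. Some of its sites lie in promoters, where it often sits just upstream of the start of transcription.

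The lists differed widely in length, more by library number than by treatment. The untreated 1 list held 11707 peaks, untreated 2 held 4495, chromium 1 held 14880 and chromium 2 held 1905 on the chromosomes used. The shared sites took up 3.74% of the untreated 1 peaks and 9.72% of the untreated 2 peaks. The score that the authors' software attached to each peak has no stated scale, so scores rank peaks within a list and are not compared between lists. A site without a peak in a list was not called there, which does not show that CTCF was absent. The depth behind each list is not known.

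Sequence was read only at promoters, so what follows covers only a part of the shared sites. RefSeq promoter windows of 300 bases on GRCm38.p6, the assembly behind mm10, run from 250 bases before a gene start to 50 after it. They were at hand for 17274 of 21631 protein-coding genes. Of the 435 shared sites, 61 overlapped a window, together 67 windows of 62 genes. The 12-letter core of the CTCF consensus, searched on both strands, matched 7 of these windows, from 6 genes (10.4%, exact Clopper-Pearson 95% interval 4.30 to 20.3%). Windows can overlap one another, and the intervals over windows, here and below, count each window separately. The same core matched 44 of 480 windows under any other site (9.17%) and 225 of all 21045 windows (1.07%). Every core match in a shared window lay inside the called site, and the 6 windows below are shown for that reason. They lie at Rapgef1 (chr2:29619470-29619769, plus strand), Cebpb (chr2:167688665-167688964, plus), Slc35b2 (chr17:45563686-45563985, plus), Adprhl2 (chr4:126321654-126321953, minus), Mrpl34 (chr8:71464676-71464975, plus) and Pdzd9 (chr7:120670294-120670593, minus). Sequences read 5′ to 3′ along the gene, and capitals mark the core match on either strand.
Rapgef1: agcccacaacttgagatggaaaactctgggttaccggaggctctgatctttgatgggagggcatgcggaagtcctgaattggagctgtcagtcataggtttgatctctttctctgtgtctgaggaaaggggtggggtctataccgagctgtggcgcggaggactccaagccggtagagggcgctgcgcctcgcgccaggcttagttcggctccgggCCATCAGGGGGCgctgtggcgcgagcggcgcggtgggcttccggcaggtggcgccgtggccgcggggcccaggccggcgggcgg
Cebpb: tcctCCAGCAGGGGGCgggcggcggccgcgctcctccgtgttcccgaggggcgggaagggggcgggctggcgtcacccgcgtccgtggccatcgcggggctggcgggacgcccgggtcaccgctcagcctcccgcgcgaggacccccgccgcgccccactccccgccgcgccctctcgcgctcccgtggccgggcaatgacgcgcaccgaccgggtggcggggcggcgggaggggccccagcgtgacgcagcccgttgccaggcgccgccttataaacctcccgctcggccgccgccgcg
Slc35b2: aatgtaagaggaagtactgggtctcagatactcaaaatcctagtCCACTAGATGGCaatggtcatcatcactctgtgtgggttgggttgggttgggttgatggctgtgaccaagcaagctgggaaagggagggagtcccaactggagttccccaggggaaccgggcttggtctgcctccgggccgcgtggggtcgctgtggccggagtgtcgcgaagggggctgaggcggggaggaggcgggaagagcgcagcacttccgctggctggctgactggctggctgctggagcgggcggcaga
Adprhl2: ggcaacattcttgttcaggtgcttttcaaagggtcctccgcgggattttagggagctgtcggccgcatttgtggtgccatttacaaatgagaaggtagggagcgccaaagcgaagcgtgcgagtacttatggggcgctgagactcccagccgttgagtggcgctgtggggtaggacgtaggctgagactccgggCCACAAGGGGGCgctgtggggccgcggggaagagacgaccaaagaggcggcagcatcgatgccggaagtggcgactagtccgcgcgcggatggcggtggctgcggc
Mrpl34: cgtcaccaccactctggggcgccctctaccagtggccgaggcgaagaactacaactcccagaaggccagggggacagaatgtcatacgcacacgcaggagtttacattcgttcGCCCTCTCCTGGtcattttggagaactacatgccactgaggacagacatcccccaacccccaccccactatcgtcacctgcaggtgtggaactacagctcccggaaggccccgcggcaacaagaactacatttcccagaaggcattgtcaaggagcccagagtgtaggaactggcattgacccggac
Pdzd9: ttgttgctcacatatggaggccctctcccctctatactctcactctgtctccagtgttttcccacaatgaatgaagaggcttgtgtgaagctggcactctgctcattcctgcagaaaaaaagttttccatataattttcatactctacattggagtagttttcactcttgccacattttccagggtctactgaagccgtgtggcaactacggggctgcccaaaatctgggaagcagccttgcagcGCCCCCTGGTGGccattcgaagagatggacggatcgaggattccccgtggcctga

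The core match lay 8.5 bp from the mean centre of the untreated peaks at Cebpb, 27.5 bp at Adprhl2, 59.5 bp at Rapgef1, 78.5 bp at Mrpl34, 98 bp at Pdzd9 and 105.5 bp at Slc35b2. The first 3 of these sites and Slc35b2 were also called in chromium 1. Mrpl34 and Pdzd9 were not.

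A shorter stretch, AGGGGGC on either strand, matched more of the windows. It can form part of the core, and it was picked after the data were seen. It occurred in 29 of the 67 shared windows (43.3%, 31.2 to 56.0%), in 25.0% of windows under other sites and in 13.04% of all windows. Among shared windows it matched 16 of 43 with a site called in chromium 1 (37.2%) and 13 of 24 with a site not called there (54.2%). The intervals of these shares, 23.0 to 53.3% and 32.8 to 74.4%, overlapped. The windows of Nipsnap2 (chr5:129724825-129725124, plus strand) and Pds5b (chr5:150673577-150673876, plus) are shown as the promoter of the highest-ranked gene-end site and as the only promoter from the list of cohesin genes. Capitals mark AGGGGGC.
Nipsnap2: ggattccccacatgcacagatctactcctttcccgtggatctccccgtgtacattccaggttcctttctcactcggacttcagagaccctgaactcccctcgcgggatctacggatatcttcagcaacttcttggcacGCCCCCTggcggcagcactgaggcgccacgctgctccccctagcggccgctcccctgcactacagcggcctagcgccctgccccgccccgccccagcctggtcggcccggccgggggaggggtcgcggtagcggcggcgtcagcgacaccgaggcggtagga
Pds5b: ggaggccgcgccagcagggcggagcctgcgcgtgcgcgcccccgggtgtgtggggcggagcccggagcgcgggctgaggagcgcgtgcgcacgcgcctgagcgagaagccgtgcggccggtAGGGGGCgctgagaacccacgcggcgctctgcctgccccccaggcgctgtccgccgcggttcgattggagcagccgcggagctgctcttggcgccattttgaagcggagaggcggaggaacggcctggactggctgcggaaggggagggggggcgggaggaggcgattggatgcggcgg

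The match lay 17 bp from the mean centre of the untreated peaks at Nipsnap2 and 36.8 bp at Pds5b. Base composition moved with these counts: the median GC content was 63.0% in shared windows, 59.3% under other sites and 56.7% over all windows, with medians of 24, 19 and 13 CpG dinucleotides. The part of composition in the motif shares was not tested. Other short motifs, also picked after the data were seen and searched on both strands, were GGGCGG, the GC box, in 61.2% of shared windows, 55.8% of windows under other sites and 46.7% of all windows, and CCGGAAG, an ETS-type motif, in 34.3%, 20.4% and 11.7%. TATAAA, the TATA box, occurred in 4.48%, 8.96% and 12.7%. CTACAACTC occurred in 2 of the 67 shared windows (2.99%, 0.364 to 10.4%), in 2.71% under other sites and in 0.803% of all windows, and its interval included both. Matches of different motifs can overlap.

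More of the shared sites than of the single-list sites were called again after chromium, in chromium 1 by a wide margin. Chromium 1 held a peak at 235 of the 435 shared sites (54.0%, 49.2 to 58.8%), against 6.96% of the 11269 sites of untreated 1 alone and 3.33% of the 4058 sites of untreated 2 alone. In the far shorter chromium 2 list 17 shared sites were called (3.91%, 2.29 to 6.18%), against 0.382% and 0.591% of the same backgrounds. Both chromium lists held 15 shared sites, chromium 1 alone 220, chromium 2 alone 2, and neither list 198 (45.5%). The shared sites also ranked higher in the untreated lists than other peaks. Their median score percentile was 90.3 in untreated 1 and 80.3 in untreated 2, against 50 for all peaks of each list. The shares above were not matched for rank. The single-list sites are those that the other untreated list did not call, so the rule itself sorts sites by repeated calling. How much of the difference in chromium 1 and chromium 2 follows from that choice was not tested. The intervals cover counting error over sites only, and sites are not replicates. With 2 libraries a group, and every shared site called in both untreated libraries by the way it was chosen, these shares give no test of treatment.

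Rank in the untreated lists went with presence in chromium 1 mostly at the top. The sites were divided into 5 rank groups of 87 by the mean of their score percentiles in both untreated lists. Chromium 1 held 44.8% of the lowest group, then 43.7%, 46.0% and 56.3%, and 79.3% of the highest group (69.3 to 87.3%), where the mean percentile was at least 94.6. The 3 lower groups did not differ beyond their intervals, and the interval of the highest group lay above those of all 4 others. The median of the mean percentile was 83.8 for shared sites called in chromium 1 and 71.5 for those not called. The highest group includes many of the 26 sites of distal chromosome 2, of which chromium 1 held 24. It also includes the 7 close sites on chromosome 9, of which chromium 1 held 6. Both places are described below, and their part in the share of the highest group was not tested. Since the scores decide the calls that chose the sites, these ranks are a description.

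**Figure D1:**
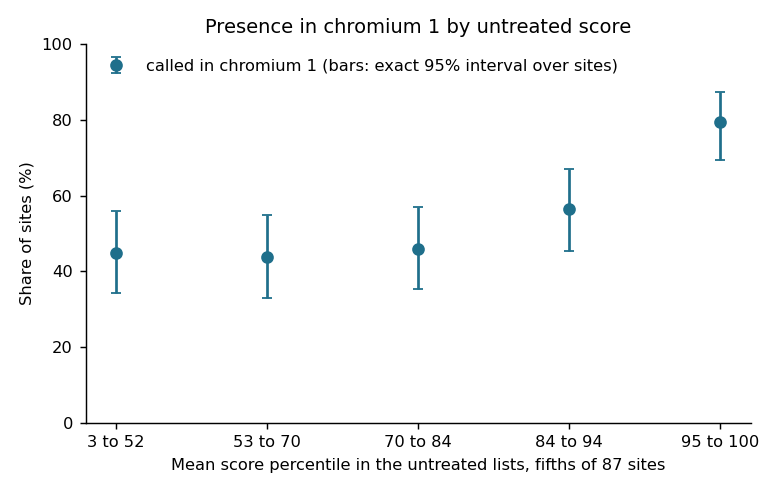
Share of shared sites also called in chromium 1 (vertical axis, %) by rank group of the mean untreated score percentile (horizontal axis, 87 sites a group), with exact 95% intervals over sites. The first 3 groups sit between 43.7% and 46.0%, and the highest is at 79.3%.

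The overlap rule limits how far apart the peak calls of a shared site can lie, so the distances between them are a description. Peak centres in the untreated lists were a median of 49.5 bp apart over the 435 sites, and the centres in untreated 1 and chromium 1 were 37.5 bp apart over the 235 sites called in both. Scores of the same site were only loosely related across sites, with Spearman's rho of 0.33 between the untreated lists (n = 435) and 0.47 between untreated 1 and chromium 1 (n = 235). Both values describe sites within single libraries, which share the number 1 input in the latter case. At the edge of the overlap rule, the smallest overlap of an untreated pair was 5 bp, and 4 of 437 overlapping pairs shared under 20 bp. The closest pair just outside lay 10 bp apart, the only pair within 20 bp, and 20 pairs lay within 200 bp. The sites measured 219 to 2577 bp, with a median of 359 bp.

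Shared sites lay at genes' ends more often than CTCF sites at large. The centre of 93 shared sites was within 1 kb of where a protein-coding gene begins or ends (21.4%, 17.6 to 25.5%), against 5.90% of all sites. A further 142 lay inside genes, over 1 kb from the ends (32.6%, against 43.6% of all sites). The other 200 lay outside genes (46.0%, against 50.5% of all sites). The median distance to a gene end was 6.85 kb for shared sites and 23.8 kb for all other sites. A median of 3 genes lay within 50 kb of a shared site and of 1 gene within 50 kb of other sites. Among the 784 sites of untreated 1 and chromium 1 that untreated 2 lacked, 16.6% lay at a gene end, the median distance to one was 8.77 kb and a median of 2 genes lay within 50 kb.

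Presence in chromium 1 did not separate gene ends, gene bodies and positions outside genes beyond counting error. Of the 235 shared sites called in chromium 1, 55 lay at a gene end (23.4%, 18.1 to 29.3%), and of the 200 not called, 38 did (interval 13.8 to 25.1%). Read the other way, chromium 1 held 55 of the 93 gene-end sites (59.1%), 72 of the 142 inside genes (50.7%) and 108 of the 200 outside genes (54.0%). Chromium 2 held 2, 7 and 8 of them.

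Near gene starts, most shared sites lay just upstream. Starts were known for only 17274 of 21631 protein-coding genes, so the shares near starts can be too low. On the chromosomes that the windows cover, 70 of 409 shared sites lay within 1 kb of a start (17.1%), against 3.75% of all 29125 sites there. The interval, 13.6 to 21.1%, overlapped that of the sites of untreated 1 and chromium 1 that untreated 2 lacked, of which 13.5% lay within 1 kb of a start (11.1 to 16.2%). Of these 70, 57 lay upstream (81.4%), and the median distance of all 70 from the start was 139 bp on either side. Among other sites within 1 kb, 570 of 1021 lay upstream (55.8%), and the median distance of all 1021 was 385 bp. The upstream side held 34 of 43 sites called in chromium 1 and 23 of 27 not called there. The 200 bp before the start alone held 9.38% of the 224 called sites and 7.57% of the 185 not called.

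**Figure D2:**
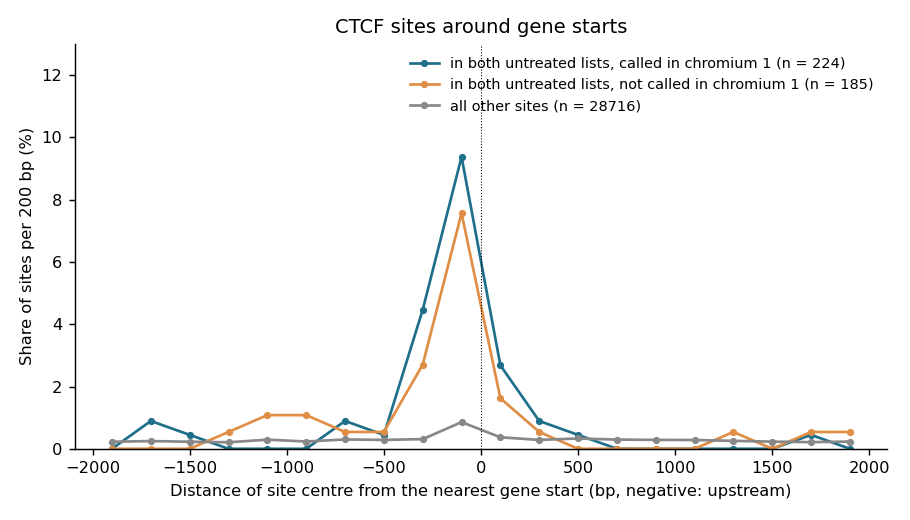
Share of sites per 200 bp (vertical axis, %) by distance of the site centre from the nearest gene start (horizontal axis, bp, negative values upstream), for shared sites called in chromium 1, shared sites not called there and all other sites. Both shared classes peak in the 200 bp before the start, at 9.38% and 7.57%.

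The gene-end sites called in chromium 1 are described by their rank in the untreated lists. The highest-ranked was the promoter of Nipsnap2 (chr5:129724737-129725216), which encodes a mitochondrial protein. It scored 26.1 in untreated 1, 17.4 in untreated 2 and 13.1 in chromium 1. Sh3glb1 (chr3:144720302-144720943), whose product bends membranes in autophagy and apoptosis, scored 21.7, 17.4 and 23.1 in the same order, and 4.23 in chromium 2. Apart from Snai1, it was the only gene-end site called in all 4 lists.

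Vps18, a core subunit of the tethering complexes of late endosomes, scored 13.5 in untreated 1, 10.5 in untreated 2 and 12.9 in chromium 1 (chr2:119288311-119288785). Vps36, a subunit of the ESCRT-II sorting complex, scored 10.2, 6.50 and 10.0 (chr8:22192639-22192919). The site by Cd63, a tetraspanin of late endosomes, and Rdh5, a retinol dehydrogenase, scored 30.4, 8.65 and 9.78 (chr10:128913259-128913608). Slc48a1, a heme transporter and the only gene of the metal handling list with a shared site, scored 32.3, 6.94 and 16.7 (chr15:97784105-97784472).

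Kdm3b, a demethylase of histone H3 lysine, scored 17.2 in untreated 1, 7.11 in untreated 2 and 17.8 in chromium 1. Hjurp, the chaperone that deposits the centromeric histone, scored 15.6, 6.87 and 13.5 (chr1:88277571-88278045). Trrap, a scaffold of histone acetyltransferase complexes, scored 11.5, 6.50 and 6.70. Chd1l, a chromatin remodeller next to the monooxygenase gene Fmo5, scored 6.82, 10.4 and 16.9. The remaining genes of the 15 highest were Csrp1, an actin-associated LIM protein, Rapgef1, an exchange factor for the small GTPase Rap, Atp5g2, a subunit of ATP synthase, Acvrl1, a receptor of the TGF-beta family, and the pair Adprhl2, an ADP-ribose hydrolase, and Tekt2, a tektin. Their scores ran from 6.96 to 17.9 in untreated 1, from 7.03 to 11.2 in untreated 2 and from 5.69 to 12.9 in chromium 1. Most of these sites lay upstream of a start, for example 98.5 bp at Nipsnap2 and 194 bp at Vps18, but that of Chd1l lay 102.5 bp downstream. The sites of Csrp1, Slc48a1, Acvrl1, Kdm3b and the pair Cd63 and Rdh5 had no known start within 1 kb. That of Csrp1 lay 0.919 kb from an end of the gene.

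Gene-end sites not called in chromium 1 included several with comparable ranks in the untreated lists. The site by Cox14, an assembly factor of cytochrome oxidase, and Gpd1, glycerol-3-phosphate dehydrogenase, scored 11.3 in untreated 1 and 6.58 in untreated 2 (chr15:99725318-99725667), with the nearest chromium 1 peak 0.807 kb away. The site by Bola2 and Slx1b, a subunit of a structure-specific endonuclease, scored 13.9 and 6.50. Paxbp1, which encodes a PAX-binding protein, scored 13.3 and 6.33, and its nearest chromium 1 peak lay 3.48 kb away. Plin3, a lipid droplet coat protein, scored 11.1 and 6.18.

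Some of them had no chromium 1 peak in their wider surroundings. At Nsd3, a histone methyltransferase, and Plpp5, a lipid phosphatase, the scores were 5.62 in untreated 1 and 5.90 in untreated 2 (chr8:25719894-25720115), with the nearest chromium 1 peak 281.7 kb away. At Abhd8 and Mrpl34, a mitochondrial ribosomal protein, which ranked lower, they were 3.97 and 5.33, and the distance was 93.0 kb. Other high-ranked sites of this class lay at Aaas, a nucleoporin, Ccm2l, Synj2, a phosphoinositide phosphatase, Catip, Ap5s1 and Ap4e1, subunits of adaptor complexes, Acss2, acetyl-CoA synthetase, Lima1, an actin-binding protein, and Taf8, a subunit of TFIID. Scores of these 9 ran from 4.50 to 9.74 in untreated 1 and from 4.39 to 9.74 in untreated 2.

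**Figure D3:**
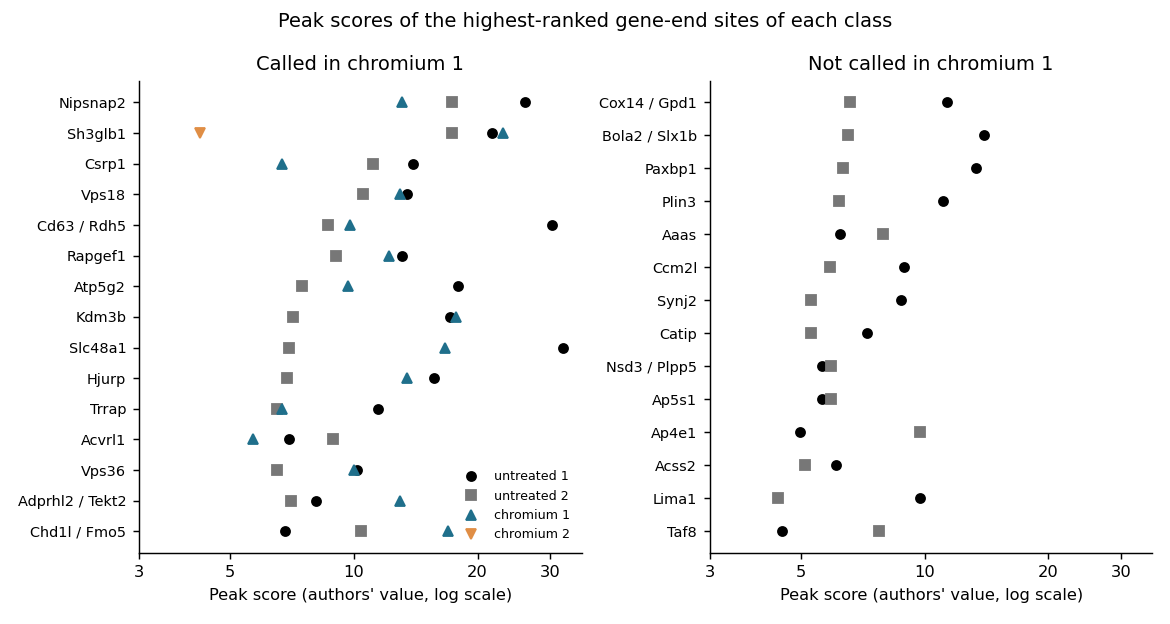
Peak scores (horizontal axis, authors' value, log scale) in each list that held a peak, for the gene-end sites with the highest mean untreated percentile among those called in chromium 1 (15 sites) and among those not called (14 sites). Scores rank peaks within a list, so distances between symbols of different lists are not measured changes. Sh3glb1 is the only row with a chromium 2 symbol.

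Over the 200 shared sites that chromium 1 lacked, a chromium 1 peak was often in the neighbourhood without overlapping. The nearest one lay a median of 11.5 kb away, and 59 of the 200 (29.5%, 23.3 to 36.3%) had one within 5 kb, 4 of them within 1 kb. For the 10485 sites of untreated 1 alone that chromium 1 lacked, the median was 23.7 kb and 16.1% had one within 5 kb. For chromium 2, a much shorter list, the median was 133 kb from the 418 shared sites it lacked, with 4.55% within 5 kb. It was 208.2 kb, with 2.48% within 5 kb, for the sites of untreated 1 alone that chromium 2 lacked.

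In 15 cases a shared site lay within 1 kb of ends of 2 genes. Chromium 1 held 8 of the 15 (53.3%, 26.6 to 78.7%), against 54.0% of all shared sites. How often other CTCF sites lie at ends of 2 genes is not given here. Called pairs, besides Cd63 with Rdh5, Adprhl2 with Tekt2 and Chd1l with Fmo5, were Abca17 with Abca3, Card6 with Rpl37, Nfkbie with Slc35b2, Trp53 with Wrap53 and Aars with Exosc6. Pairs not called, besides those above, included Clcn2 with Fam131a and Asic1 with Smarcd1. Trp53, the tumour suppressor p53, and Wrap53, its neighbour on the other strand, which encodes a telomerase factor, shared a site with scores of 10.2 in untreated 1, 4.27 in untreated 2 and 22.1 in chromium 1 (chr11:69579285-69579617). Its rank in chromium 1 was the highest of the called pairs.

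The gene lists were set beside all protein-coding genes. Over all protein-coding genes, 108 of 21631 had a shared site at an end (0.499%), and 8.63% had any CTCF site there. Of the 108, 63 had a site called in chromium 1, 45 had one not called, and 0 had both. Another 139 genes held a shared site in the body. In the 6 functional lists with such a gene the share was 2.86 to 5.41%, from 1 or 2 genes each, and in 5 functional lists it was 0. These 6 lists hold 31 to 51 genes, so 1 such gene already puts a list above 0.499%. Any CTCF site lay at an end of between 3 of 50 (histone methylation enzymes) and 10 of 35 (metal handling) of their genes. The lists were made with earlier results known, so these counts describe where the sites lay and single out no list.

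In the list of CTCF, cohesin and domain structure genes, 1 of 34 had a shared site at an end. It was Pds5b, a regulator of cohesin release, with scores of 6.86 in untreated 1 and 3.67 in untreated 2 and no call after chromium. Ctcfl, the germline paralogue of CTCF, held a shared site in its body that chromium 1 lacked. Histone methylation enzymes gave 2 of 50, Kdm3b and Nsd3, of which chromium 1 held the former. Ehmt2, a methyltransferase of histone H3 lysine, held a site in its body with scores of 8.10 and 8.78, and the nearest chromium 1 peak lay 10.8 kb away.

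Hepatocyte genes gave 2 of 51. The promoter of Cebpb, a liver transcription factor, scored 11.99 in untreated 1, 4.07 in untreated 2 and 15.4 in chromium 1. Apoa2, an apolipoprotein of high density lipoprotein, scored 3.68 and 3.16 in the untreated lists and was not called after chromium. Hnf4a, a nuclear receptor central to hepatocyte identity, held a site in its body that scored 6.82, 3.35 and 6.70. Among 23 markers of endothelial, macrophage, stellate and bile duct cells, 0 had a shared site at an end, and Csf1r held one in its body.

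Of the genes that respond to stress, the list of p53 and DNA damage genes gave 1 of 31, Trp53. Immediate early and stress kinase genes gave 2 of 37, both called in chromium 1. Dusp1, a phosphatase of MAP kinases, scored 2.999 in untreated 1, 7.11 in untreated 2 and 4.95 in chromium 1. Snai1, a transcriptional repressor, scored 17.6, 4.90 and 6.99, and 4.31 in chromium 2. Metal handling genes gave 1 of 35. Lists of AHR and xenobiotic genes (23 genes), NRF2 and glutathione genes (26), cell cycle genes (38) and imprinted or boundary loci (25) gave 0 each.

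In families taken by symbol, the counts were as follows. Cytosolic ribosomal protein genes gave 1 of 92 (Rpl37), respiratory chain and ATP synthase genes 2 of 98 (Atp5g2 and Ndufb10), solute carriers 2 of 375 and Zfp zinc finger genes 1 of 397 (Zfp90). Vacuolar sorting and Rab genes gave 2 of 104, ubiquitin ligases and proteases 1 of 284 (Rnf216), aminoacyl tRNA synthetases 1 of 35 (Aars), keratins 1 of 53 (Krt8) and mitochondrial ribosomal proteins 1 of 78. Of these, chromium 1 lacked the sites of Ndufb10 and Mrpl34. Hox genes (39), clustered protocadherins (52) and olfactory or vomeronasal receptors (1465) gave 0. Replication-dependent histone genes matched no symbol in the gene table.

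The shared sites were unevenly spread over the chromosomes. Chromosome 2 held 76 of them (17.5%, against 9.57% of all sites), chromosome 15 held 69 (15.9% against 14.99%), chromosome 17 held 44 and chromosome 5 held 37. Per 100 merged sites, chromosome 5 had 2.76 shared sites and chromosome 2 had 2.54, while chromosome 1 had 0.698, chromosome 6 had 0.550 and chromosome 4 had 0.424. Chromosome X had 0 of 159. Chromium 1 held 48 of the 76 on chromosome 2 (63.2%, 51.3 to 73.9%) and 8 of the 22 on chromosome 1 (36.4%, 17.2 to 59.3%), with overlapping intervals.

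**Figure D4:**
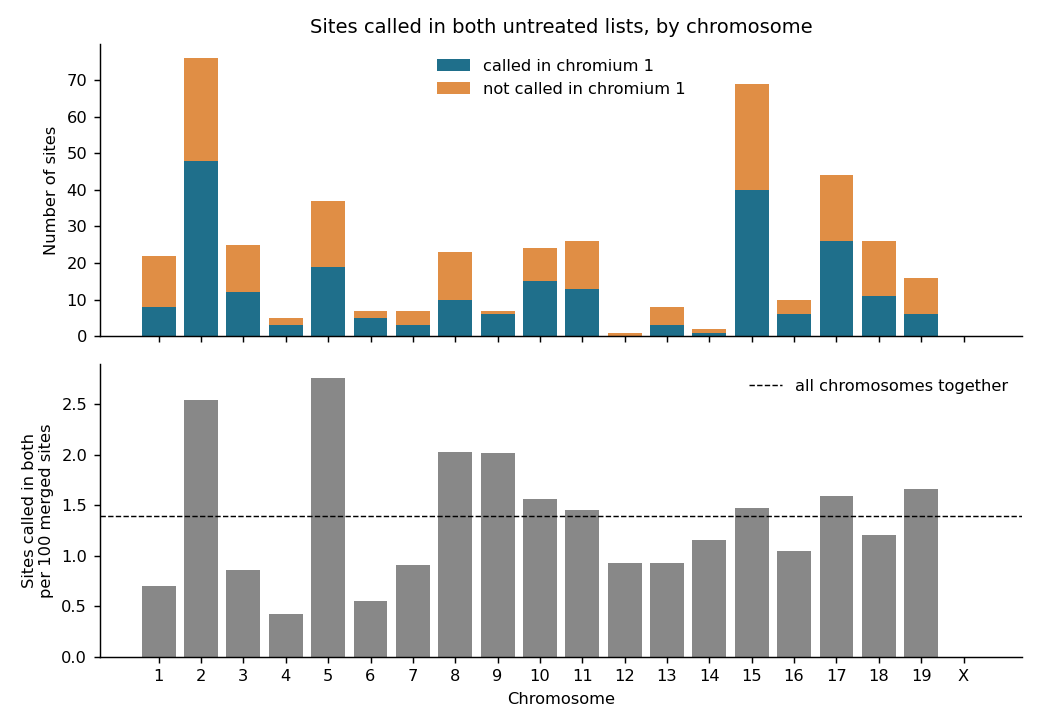
Number of shared sites on each chromosome, divided by presence in chromium 1 (upper panel), and shared sites per 100 merged sites (lower panel, dashed line for all chromosomes together). Chromosomes 2 and 15 hold 76 and 69 sites, and chromosome 5 has 2.76 per 100.

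Along the chromosomes, the shared sites came as many singles and a few crowded stretches. Of the 1154 windows of 2 Mb with any site, 216 held a shared site and 127 held exactly 1. The 10 fullest windows held 88 (20.2%). The fullest, on chromosome 2, held 16 shared sites among 183 sites of any list, and the next, on chromosome 15, held 11 among 161. A window on chromosome 9 held 7 among only 22. Whether shared sites crowd more than sites of any list do was not tested. The median distance between neighbouring shared sites was 633 kb, with quartiles of 172 and 2930 kb, and 72 of 416 gaps were within 100 kb (17.3%). In the set of untreated 1 with chromium 1, without untreated 2, the median was 578 kb and 16.9% were within 100 kb. Of the 72 neighbours within 100 kb, both sites were called in chromium 1 in 33, neither in 11 and 1 of the pair in 28. Of the 241 neighbours within 1000 kb, the counts were 80, 40 and 121. Taken alone, the sites called in chromium 1 had a median gap of 1075 kb, with 15.7% of 217 gaps within 100 kb. Those not called had a median gap of 2506 kb, with 6.08% of 181 gaps within 100 kb. Each class has fewer sites than the whole, which widens its gaps. The part of the crowded stretches below in this difference was not tested.

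**Figure D5:**
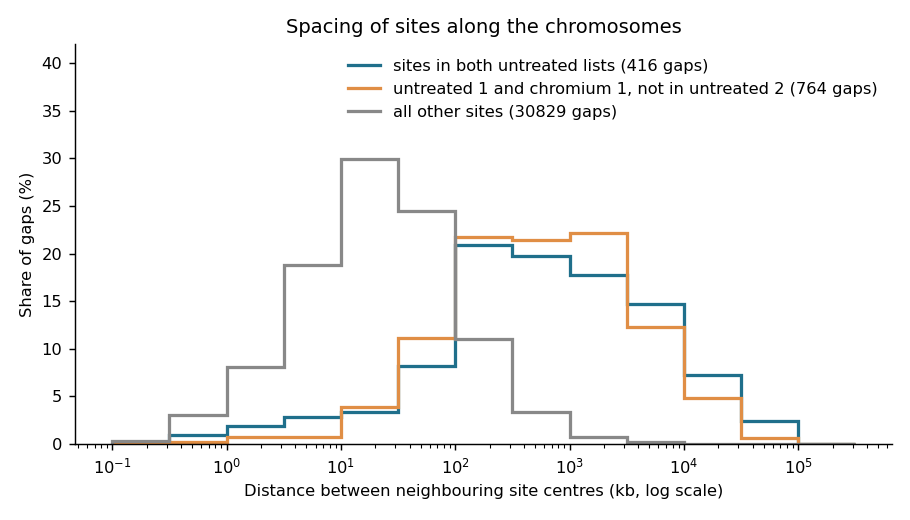
Share of gaps between neighbouring site centres (vertical axis, %) by distance (horizontal axis, kb, log scale) for shared sites, for sites of untreated 1 and chromium 1 not in untreated 2, and for all other sites. The median gap is 633 kb for shared sites and 578 kb for the second set, and all other sites, which are far more numerous, lie closer together.

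The fullest stretch was distal chromosome 2, at chr2:166084955-168930036. Chromium 1 held 24 of its 26 shared sites (92.3%, 74.9 to 99.1%), and chromium 2 held 5. Elsewhere chromium 1 held 211 of 409 (51.6%, 46.6 to 56.5%). The 26 sites ranked high, with a median mean untreated percentile of 97.3, against 76.3 elsewhere. The windows of 2 Mb over this stretch held 183 and 182 sites of any list. Around Cebpb, 5 shared sites lay within chr2:167680002-167713682, and chromium 1 held all 5. The farthest upstream of them, 8.67 kb before the start, scored 11.6 in untreated 1, 14.4 in untreated 2, 11.1 in chromium 1 and 6.20 in chromium 2, and the one 23.1 kb beyond the nearer end of the gene scored 20.3, 7.03, 9.95 and 5.21. Within the zinc finger gene Zfp64, 3 sites lay in chr2:168904170-168930036, all called in chromium 1.

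Other close groups differed from one another. At Rab37, a small GTPase of secretion, and Nat9, an acetyltransferase, 3 sites in chr11:115159999-115182695 scored 5.04 to 6.21 in untreated 1 and 4.25 to 5.85 in untreated 2, and chromium 1 held 0 of the 3. Its nearest peaks lay 1.06 to 2.00 kb from them. Near Asic1, Smarcd1 and Cox14, 4 sites lay in chr15:99668924-99725667, of which chromium 1 held 2. Near Spire2, Mc1r and Def8 it held 1 of 3 (chr8:123361456-123443406).

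The most closely packed groups lay outside protein-coding genes at places that resemble repeats, judged after the data were seen. On chromosome 9, 7 shared sites lay in chr9:3020090-3037587, 297.8 to 314.8 kb from the nearest gene end, at Alkbh8. Their scores ran from 31.6 to 1349 in untreated 1 and from 60.2 to 1546 in untreated 2. Chromium 1 held 6, at 2.59 to 334.8, and lacked the one with the highest untreated scores. On chromosome 17, 3 sites called in chromium 1 lay in chr17:39844256-39848799, over Rn18s-rs5, a pseudogene in RefSeq related to ribosomal RNA. A single site on chromosome 2 (chr2:98666115-98668691), the longest of all, scored 2156 in untreated 1, 4.26 in untreated 2 and 992 in chromium 2, with no call in chromium 1. A single site on chromosome 14 (chr14:19418592-19418981) was called in all 4 lists. Without the 12 sites of these 4 places, chromium 1 held 53.2% of the shared sites, and 22.0% lay at a gene end.

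The shared sites called in chromium 2 were few, at 17. On chromosome 2 lay 9 of the 17, and chromium 1 held 15. Besides Snai1, Sh3glb1, the pair near Cebpb and the places on chromosomes 2 and 14 above, they lay in or nearest to Niban2, Ralgps1, Kcnip3, Ptgis, Atp9a, Celsr2, Slc29a4, Mtif3, Ext1, Tmem106c and Aqp5. The site in Celsr2, an adhesion receptor of planar cell polarity, scored 9.36 in untreated 1, 10.7 in untreated 2, 3.97 in chromium 1 and 6.14 in chromium 2. The site in Ext1, an enzyme of heparan sulfate synthesis, scored 4.50, 6.50 and, in chromium 2, 4.23, with a chromium 1 peak 2.11 kb away. Scores in chromium 2 ran from 3.42 to 992, and apart from the 2 repeat-like places all 15 were called at between 3.42 and 6.20.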

How the data were processed

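CTCF chromatin immunoprecipitation libraries of untreated and chromate-treated Hepa-1c1c7 cells were sequenced, and 1 peak list per library was used. The inputs were not analysed here beyond their part in the calls. Reads were handled with Bowtie and MACS2 on mm10, per the submitters' processing notes, with versions, thresholds and read depth not stated. Each list was called by itself against the input of its own number, per the peak names in the deposited files, so replicates were not pooled. The deposited score of each peak is the authors' caller value on a scale not given, and it was used only to rank peaks within a list.

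Positions were read as 1-based. Peaks of different lists overlapping by at least 1 bp were merged on chromosomes 1 to 19 and X. Genes and promoter windows came from RefSeq tables of GRCm38.p6. Gene ends use no strand, starts come from the promoter windows, and distances run from the midpoint of the site. Shares have exact Clopper-Pearson 95% intervals. No group test was made. Named sites were the 15 gene-end sites of highest mean untreated percentile in each chromium 1 class, all sites called in chromium 2, those at listed genes, those at ends of 2 genes and the closest groups, apart from 1 site that is left out here. The shared sites, the 24 gene lists and the rules were chosen with earlier results of these data known. Merging was tested on simulated data. Alternatives were a score floor, other overlap and gene windows, and each library left out. Python 3.11.15, numpy 2.4.6, pandas 2.3.3, scipy 1.17.1 and matplotlib 3.10.9 were used.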

Additional observations from a re-analysis of the deposited data

How the results depend on the processing

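The shares of shared sites called in chromium 1 and chromium 2, or in neither, moved by less than their intervals under every alternative that kept both untreated lists and the chromium list in question, as did the gene-end share under every choice of overlap, score or list length. With only peaks at or above the median score of their list, 282 shared sites remained and their median spacing was 963 kb. With all lists held to the length of chromium 2, a choice made after seeing the data, there were 187, with a median spacing of 1104 kb. A gene window of 500 bp put 16.8% at gene ends, and one of 2.5 kb put 31.5% there and 28.0% inside genes.

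Leaving out an untreated library turns the sites into those of the other list, so the count ranged from 435 to 11706 over the 4 libraries left out in turn (4494 without untreated 1). The gene-end share ranged from 7.19 to 21.4%, the share inside genes from 32.6 to 42.6% and the spacing from 56.9 to 633 kb. The share in chromium 1 ranged from 8.23 to 54.0%, in chromium 2 from 0.513 to 3.91% and in neither list from 45.98 to 96.1%, the last without chromium 1. Of 121 recomputed values, 93 stayed within their interval or within 1.5 times the count, and 28 moved. Some of the 93 could hardly move, such as the count and spacing with a chromium library left out, since the rule does not use those lists. No paired analysis was possible because the results come from no test. The width of the intervals reflects the number of sites, while any statement about treatment is limited by 2 libraries a group. The read depth is not known.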

Other observations

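In untreated 2, 14 peaks lay on the mitochondrial chromosome, and 0 did in the other 3 lists. They were left out of the sites. MicroRNA hairpins in RefSeq lay within 5 kb of 3 shared sites: Mir688 at 0.534 kb from the Atp5g2 promoter site, which chromium 1 held, and Mir8093 at 1.94 kb and Mir8099-1 at 3.61 kb from sites it lacked. The share of all CTCF sites near such hairpins is not given here.

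Of the 435 shared sites, 36 had no protein-coding gene within 50 kb (8.28%), against 22.6% of all other sites and 9.57% of the sites of untreated 1 and chromium 1 that untreated 2 lacked. Chromium 1 held 15 of these 36 (41.7%, exact 95% interval 25.5 to 59.2%).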
